A study of Homo sapiens with 2 samples.

Results

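The miRNAs numbered 3600 to 3999 in miRBase make up 142 of the 2549 human miRNAs read by the arrays of this study. They were taken by name, as every non-control entry with such a number on both arrays, and 3648, 3651 and 3687 were left out. RNA came from exosomes, small vesicles released by cells, of FaDu, an established cell line from a human squamous cell carcinoma of the hypopharynx. The oe-NC cells carried a negative control (NC) plasmid and the oe-HOTTIP cells a plasmid for overexpression of HOTTIP, a long noncoding RNA of the HOXA locus, and the question was which exosomal miRNAs differ between them. The labels describe a plasmid lentivirus and the study's methods a liposomal transfection of an expression plasmid, so the way of delivery is not settled. Time and passage of the cells were not given in the sources used here. Each group was measured on 1 one-colour Agilent miRNA array with 200 ng of RNA, and the groups therefore have no replicates and no difference was tested. The label of each array contradicts itself, because title and treatment name one group and the free-text description the other. Arrays are called by their titles, and HOTTIP is not read by a miRNA array and could not serve as a check. If the descriptions are the correct ones, every direction given here is reversed. The paper followed miR-19a-3p and miR-19b-3p as miRNAs bound by HOTTIP, after a screen for miRNAs downregulated with it. By title, both were higher on the oe-HOTTIP array, at log2 differences of 0.61 and 0.35 after the scaling described below. Which label is correct was not settled.

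Numbers in miRBase follow the order in which miRNAs were registered, so a range of numbers is not a family. miRNAs of this range came mostly from sequencing of small RNA, after the abundant and conserved families had been named. A miRNA is cut as a short duplex from a hairpin precursor, the strand from the left side is the 5p arm and that from the right side the 3p arm, and either can be loaded into an Argonaute protein, where bases 2 to 8, the seed, select target mRNAs. Exosomes carry a selected part of the miRNAs of a cell, and hnRNPA2B1 is an RNA-binding protein known to sort miRNAs with the motif GGAG into them.

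The mature sequences of 12 members that gave signal on at least 1 array are shown because they differ in their seeds and in their content of G and C, which the results below return to. Sequences and positions are those of RefSeq on GRCh38.p14, written 5′ to 3′ with the seed in capitals. Gene spans come from the same source, in which exons and introns were not resolved here. RefSeq entries matched 122 of the 142 members and 13 of the 16 that were detected, and miR-3610, miR-3656 and miR-3960 were not matched.
miR-3652: cGGCUGGAggugugagga
miR-3663-3p: uGAGCACCacacaggccgggcgc
miR-3665: aGCAGGUGcggggcggcg
miR-3679-5p: uGAGGAUAuggcagggaagggga
miR-3679-3p: cUUCCCCCcaguaaucuucauc
miR-3934-5p: uCAGGUGUggaaacugaggcag
miR-3934-3p: uGCUCAGGuugcacagcuggga
miR-3650: aGGUGUGUcuguagagucc
miR-3907: aGGUGCUCcaggcuggcucaca
miR-3940-5p: gUGGGUUGgggcgggcucug
miR-3972: cUGCCAGCcccguuccagggca
miR-3675-3p: cAUCUCUAaggaacucccccaa

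Most of these miRNAs lie within the span of another gene. miR-3652 (chr12:103930425-103930442, plus strand) lies in HSP90B1, which encodes a chaperone of the endoplasmic reticulum, on the same strand. miR-3679-5p (chr2:134127130-134127152, plus strand) and miR-3679-3p (chr2:134127168-134127189, plus strand) lie in MGAT5, a gene for a glycosyltransferase that branches N-glycans, also on its strand. miR-3940-5p (chr19:6416470-6416489, minus strand) lies in KHSRP on the same strand, and KHSRP encodes an RNA-binding protein that takes part in the processing of some miRNA precursors. miR-3650 (chr5:38557540-38557558, minus strand) lies in LIFR, the receptor of leukemia inhibitory factor, and opposite to LIFR-AS1. miR-3663-3p (chr10:117167695-117167717, minus strand) lies in the long noncoding RNA MIR3663HG, and miR-3907 (chr7:151433526-151433547, minus strand) in CRYGN, a gene of the crystallin family. miR-3934-5p (chr6:33698152-33698173, plus strand) and miR-3934-3p (chr6:33698191-33698212, plus strand) lie opposite to UQCC2, an assembly factor of a mitochondrial respiratory complex. miR-3665 (chr13:77698075-77698092, minus strand) lies opposite to SLAIN1. For miR-3972 (chr1:17277948-17277969, plus strand) in PADI3 and for miR-3675-3p (chr1:16858958-16858979, minus strand) in the pseudogene PDE4DIPP9, the strand of the surrounding gene was not given in the table used.

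Few members gave signal. The scanner software called 10 of the 142 (7.04%) detected on the oe-NC-labelled array and 13 (9.15%) on the oe-HOTTIP-labelled array. Detected on both were 7, on the oe-NC array alone 3, on the oe-HOTTIP array alone 6 and on neither 126. At least 1 array detected 11.3% of the members and 18.3% of the 2407 other miRNAs. Of the 186 miRNAs numbered 1400 to 3299, 12.4% were detected on at least 1 array, and of the 80 numbered 4251 to 4330, 18.8% were. The 126 undetected members had intensities of -3.26 to 4.74 on the oe-NC-labelled array, where the negative control spots had a mean of 3.87 ± 2.37 (SD, 976 spots). On the other array they lay between -3.46 and 4.598, beside negative control spots at 3.45 ± 2.21 (SD, 975 spots). Intensity here is the background-subtracted brightness of a spot before scaling, and a value below 0 is a spot dimmer than its background. An undetected miRNA is one that was not measured above background, and its absence from the exosomes does not follow. More exosomes in a preparation and more copies of a miRNA in each cannot be told apart.

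The arrays shared 1 slide and 1 scan. Each member was read by 2 to 4 probes and 20 spots per array, and no spot of any miRNA was saturated. Of 8 miRNAs known from epithelial and squamous cells, the cell type of FaDu, 6 were detected on at least 1 array, among them miR-205-5p at 415 and 489.9 on the arrays labelled oe-NC and oe-HOTTIP, and miR-429 and miR-203a-3p were not detected. Of 5 miRNAs known from blood cells, 4 were detected on both arrays, and miR-142-3p was not detected. Among them miR-451a, a miRNA of red blood cells, was at 2233 ± 869 (SD, 10 spots) and 2552 ± 346 (SD, 14 spots). miR-486-5p was at 12.6 and 5.91, miR-223-3p at 9.53 and 24.1 and miR-144-3p at 19.0 and 23.7. The summed intensity of the epithelial list was 530.4 and 640, most of it miR-205-5p. That of the blood cell list was 2277 and 2609, most of it miR-451a. Intensities of different probes are not comparable, so these sums do not rank the lists. The intensities and sums are not scaled. After the scaling described below, the 5 epithelial miRNAs detected on both arrays had a median log2 difference of -0.62 (-0.65 to 0.17). For the 4 blood cell miRNAs it was -0.40 (-1.75 to 0.69). The part of either list in the values of the members was not tested.

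**Figure D1:**
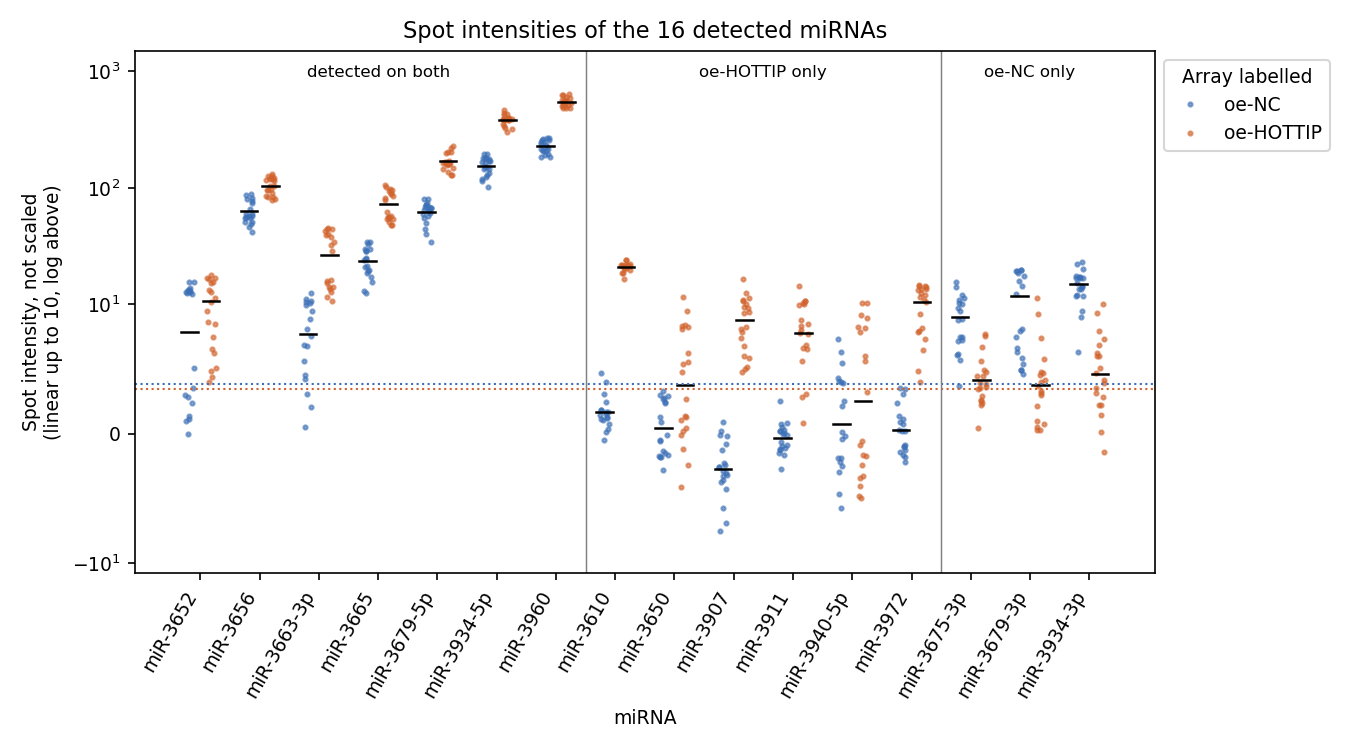
Intensity of every spot that was not marked as an outlier (linear up to 10, log above, not scaled) for the 16 members detected on at least 1 array, with the oe-NC-labelled array on the left and oe-HOTTIP on the right of each pair. Black bars are means over probes and dotted lines the mean of the negative control spots of each array, and miR-3610 is the member whose spots lie near 0 on one array and at 21.1 on average on the other.

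For comparison, signals were scaled to the 90th percentile of the 261 miRNAs that both arrays detected, which was 279.9 on the oe-NC-labelled array and 439 on the other. Before scaling, the median log2 difference over these miRNAs was 0.67, so unscaled intensities were higher across the array titled oe-HOTTIP as a whole. After scaling it was 0.02. The median over the 7 members detected on both was 0.66, with a range of -0.22 to 1.13. On the oe-HOTTIP-labelled array 6 of the 7 were higher, beside 135 of all 261 miRNAs detected on both arrays. Of these 6 members, miR-3656 was lower under 5 of 10 other ways of processing and miR-3663-3p was lower with normexp. In the normalized table, whose columns follow the scanner values of the arrays with the opposite title, the median of the same members was -0.60 as its columns stand. The median size of the difference, without its sign, was 0.66 for the 7 members and 0.70 over all 261 miRNAs. At least 2-fold higher was 1 of the 7 members, beside 18.0% of all miRNAs detected on both arrays, and at least 2-fold lower were 0 of the 7, beside 21.1%. A fold of 2 is the threshold of the study's methods and, with 1 array per group, is not a test.

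miR-3960 was read at 227 ± 26.7 (SD, 19 spots) on the oe-NC-labelled array and at 547 ± 39.0 (SD, 19 spots) on the oe-HOTTIP-labelled array. Scaled to the 90th percentile of their array, its spots ran from 66.2% to 96.2% and from 109% to 145%, and the ranges did not overlap. The log2 difference was 0.62, with a spot spread of 0.20. The hairpin MIR3960 (chr9:127785833-127785923) overlaps by 6 bases with MIR2861 (chr9:127785918-127786007), and miR-2861 and miR-3960 are known as a cluster that acts in osteoblast differentiation. miR-2861 was read at 14.3 ± 4.82 (SD, 18 spots) and 39.3 ± 10.9 (SD, 20 spots), a log2 difference of 0.81. As reported here, both miRNAs of the cluster were higher on the oe-HOTTIP-labelled array, each by less than 2-fold.

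miR-3663-3p had an intensity of 7.68 ± 2.0 (SD, 18 spots) on the oe-NC-labelled array and of 26.4 ± 4.23 (SD, 19 spots) on the oe-HOTTIP-labelled array. The difference was 1.13 on the log2 scale, or 2.19-fold, with a spot spread of 0.44, and this was the member just above the threshold. Of its spots, 11.1% were well above background on the first array and 94.7% on the second, so the lower value is close to background. miR-3665 lay just below the threshold at 1.99-fold. Its intensities were 23.5 ± 4.32 (SD, 19 spots) and 73.2 ± 6.89 (SD, 20 spots), and the log2 difference was 0.99 with a spot spread of 0.30. The scaled spots of miR-3665 overlapped in a narrow stretch, with a highest value of 12.4% of the 90th percentile on the first array and a lowest of 10.9% on the second. Both miRNAs are rich in G and C, with 73.9% and 83.3%.

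miR-3656 and miR-3652 showed little difference. miR-3656 was read at 63.3 ± 9.07 (SD, 19 spots) on the oe-NC-labelled array and at 105 ± 8.20 (SD, 20 spots) on the other, a log2 difference of 0.07 with a spot spread of 0.24 after scaling. For miR-3652 the intensities were 7.87 ± 1.40 (SD, 19 spots) and 10.6 ± 2.43 (SD, 20 spots), and the log2 difference was -0.22 with a spot spread of 0.42. The probes of miR-3652 disagreed, at log2 differences of -0.54 and 0.90, so no direction can be given for it. The other 6 members detected on both arrays had probes of 1 sign.

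**Figure D2:**
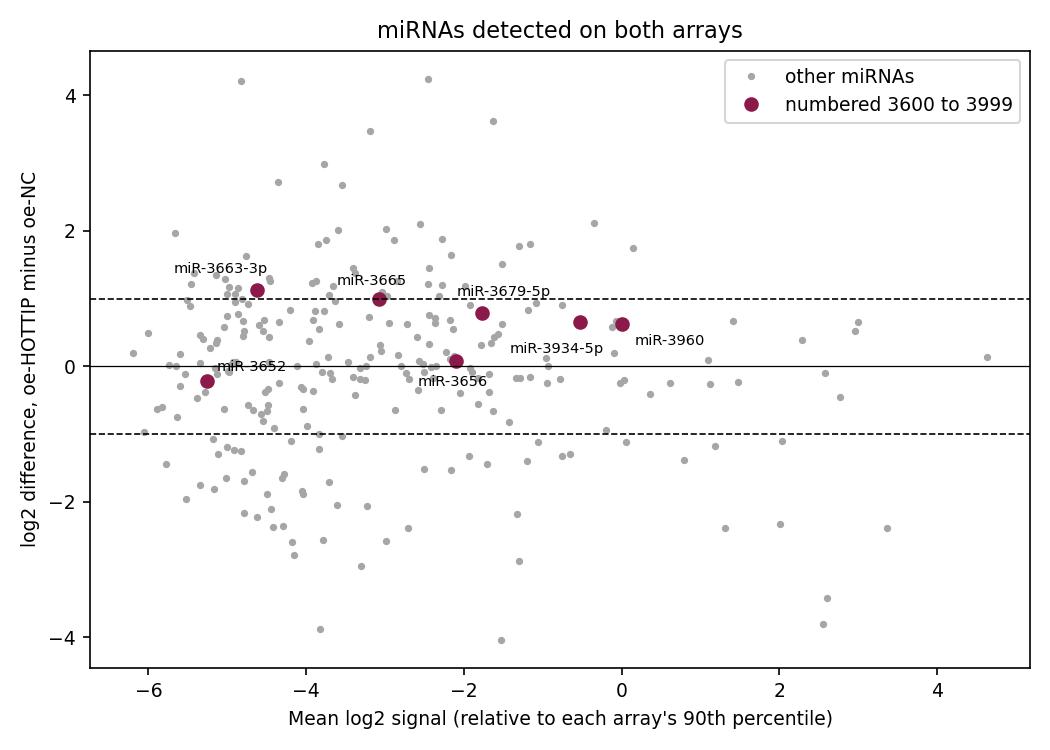
Log2 difference between the oe-HOTTIP-labelled array and the oe-NC-labelled array against the mean log2 signal, both after scaling, for the 261 miRNAs that both arrays detected. The 7 members lie between -0.22 and 1.13, while dashed lines mark 2-fold differences and miR-3663-3p lies above the upper one.

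The hairpins of miR-3679 and miR-3934 were the only ones in the range with both arms detected on at least 1 array, and in each the arms went in opposite directions. miR-3679-5p was read at 62.1 ± 12.6 (SD, 20 spots) on the oe-NC-labelled array and at 169 ± 22.9 (SD, 20 spots) on the oe-HOTTIP-labelled array. After scaling, its difference was 0.79 on the log2 scale with a spot spread of 0.35, and its spots did not overlap, at 12.3% to 28.7% and 29.3% to 52.2% of the 90th percentile. The opposite arm, miR-3679-3p, was detected on the first array, at 11.8 ± 2.03 (SD, 19 spots) with 47.4% of its spots well above background, and was not on the second, at 3.81 ± 2.41 (SD, 19 spots). By the bound defined below, it was at least 4.86-fold lower on the oe-HOTTIP-labelled array.

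miR-3934-5p had intensities of 154 ± 26.4 (SD, 20 spots) on the oe-NC-labelled array and 383 ± 39.997 (SD, 20 spots) on the oe-HOTTIP-labelled array. Its log2 difference was 0.66 with a spot spread of 0.29, and the scaled spots overlapped only between 69.3% and 69.9% of the 90th percentile. miR-3934-3p was detected on the first array at 14.9 ± 4.26 (SD, 20 spots), with 85.0% of its spots well above background. On the second it was not detected, at 4.605 ± 2.90 (SD, 20 spots) with 0 spots well above background. By the same bound it was at least 5.10-fold lower. Relative to the 3p arm, the 5p arm of miR-3679 was 8.42-fold higher on the oe-HOTTIP-labelled array than on the other. For miR-3934 it was 8.06-fold higher. Both contrasts rest on the bounds of the 3p arms and are not minimums. With a higher floor, defined below, those bounds were 2.87 and 3.65, and the contrasts become smaller. The scaling cancels in this comparison of arms. For both hairpins, the 2 probes of the 5p arm were each higher and the 2 probes of the 3p arm each lower. The 5p arms were higher under each of 10 other ways of processing, whereas the bounds of the 3p arms fell to 1.66 and 1.73 with normexp. Where over 50% of spots had to be well above background, miR-3679-3p counted as undetected on both arrays and the bound of miR-3934-3p was 1.98.

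**Figure D3:**
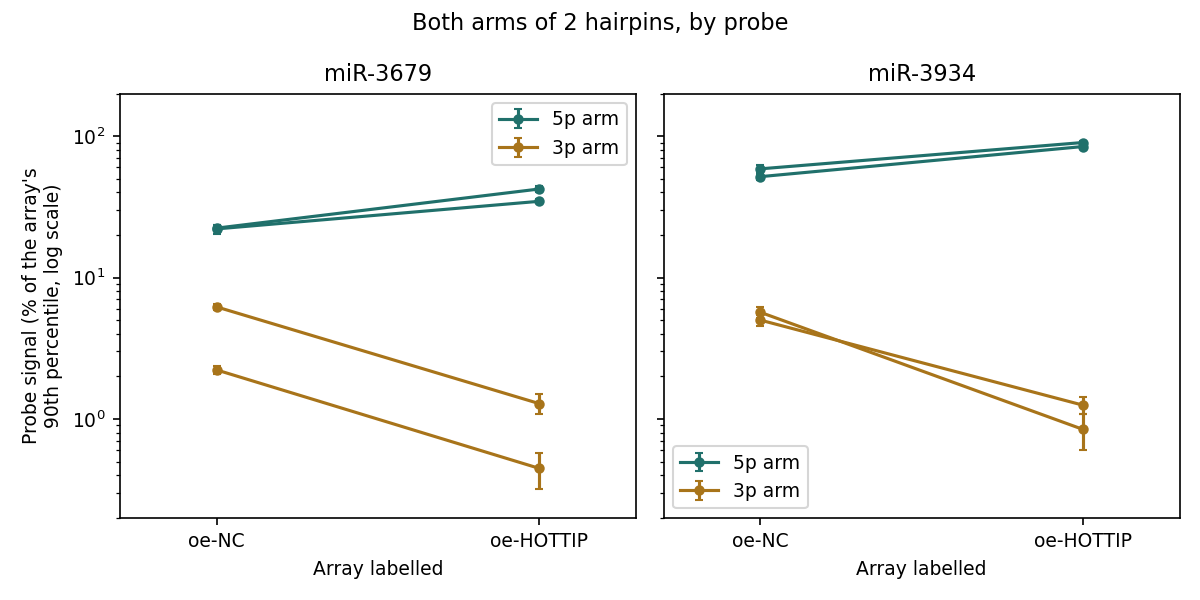
Signal of each probe of both arms of miR-3679 and miR-3934 on the arrays labelled oe-NC and oe-HOTTIP, in percent of the 90th percentile of the array on a log scale, with the standard error over spots. The 5p probes are higher and the 3p probes lower on the oe-HOTTIP-labelled array in both hairpins, and heights of different probes are not comparable.

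Over the whole array, 31 hairpins had both arms detected on at least 1 array, and the arms differed in direction in 14 of them (45.2%), whatever the size of the difference. In 12 of these 14 the 5p arm was higher and the 3p arm lower on the oe-HOTTIP-labelled array, and in 2 it was the other way round. Without the 2 hairpins of the range, the counts were 12 opposite of 29, with 10 and 2 in the 2 orientations. The orientation seen in miR-3679 and miR-3934 was thus also found outside the range.

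The range holds 36 hairpins for which both arms are on the array. Besides miR-3679 and miR-3934, 3 had 1 arm detected and 31 had neither. miR-3663-5p, opposite miR-3663-3p, was at -1.81 and -1.89. miR-3675-5p was at -0.935 and -0.898, and miR-3940-3p at -0.379 and -1.21. Each of these was below the mean of the negative control spots on its array.

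With bounds included, 6 of the 16 detected members were at least 2-fold higher on the oe-HOTTIP-labelled array, or 5 beside miR-3663-3p, where 33.9% of all 457 miRNAs detected on at least 1 array were. At least 2-fold lower were 3 of the 16, beside 25.2%. With normexp, 0 members were 2-fold different in either direction, and with a higher floor for the bounds 2 were higher and 3 lower. For a bound, the signal where the miRNA was detected was divided by that of the other array, or by the lowest signal detected there if this was higher. That lowest signal was 0.976 on the oe-NC-labelled array and 2.43 on the other, below the mean of the negative control spots of each. A bound given as at least some fold therefore holds only under this rule, and the higher floor gave smaller folds or none. Spots of the arrays did not overlap after scaling for 4 of the 16, which were miR-3610, miR-3679-5p, miR-3907 and miR-3960, beside 27.1% over all 457.

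Of the members detected on the oe-HOTTIP-labelled array alone, miR-3610 stood out by its spots. It was at 1.66 ± 1.22 (SD, 18 spots) on the oe-NC-labelled array and at 21.1 ± 1.91 (SD, 17 spots) on the other, at least 8.06-fold higher. None of its spots on the first array and 100% of those on the second were well above background. With the higher floor, set where at least 50% of miRNAs of like signal are detected, the bound was 2.52.

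miR-3972 was at 0.304 ± 1.78 (SD, 19 spots) on the oe-NC-labelled array and at 10.6 ± 2.93 (SD, 20 spots) on the oe-HOTTIP-labelled array, where 50% of its spots were well above background, and was at least 6.91-fold higher. With the higher floor the bound was 1.27. miR-3907 was at -2.74 ± 2.27 and 8.79 ± 2.92 (SD, 20 spots each), at least 5.74-fold higher, or 1.05-fold with the higher floor. miR-3911 was at -0.335 ± 1.199 and 7.78 ± 3.24 (SD, 19 spots each), at least 5.08-fold higher, and the higher floor left no fold to give. On the oe-HOTTIP-labelled array, 10% of the spots of miR-3907 and 5.26% of those of miR-3911 were well above background. With only the brightest probe, the bounds of miR-3972, miR-3907 and miR-3911 were 1.65, 1.25 and 1.09.

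miR-3650 and miR-3940-5p were detected near the limit. miR-3650 was at 0.423 ± 2.14 (SD, 19 spots) and 3.79 ± 2.45 (SD, 20 spots), a bound of 2.47, and its probes on the oe-HOTTIP-labelled array were at 7.42 and 0.155. miR-3940-5p was at 0.790 ± 2.06 (SD, 19 spots) and 2.52 ± 1.91 (SD, 20 spots), below the mean of the negative control spots, with a bound of 1.64. One of its probes was at 7.79 and the other at -2.76. Both detection calls rest on 1 probe. On the oe-HOTTIP-labelled array, 5% of the spots of miR-3650 and 0% of those of miR-3940-5p were well above background.

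Besides the 3p arms of miR-3679 and miR-3934, 1 member was detected on the oe-NC-labelled array alone. miR-3675-3p was at 9.01 ± 2.73 (SD, 19 spots) there and at 4.14 ± 1.54 (SD, 19 spots) on the oe-HOTTIP-labelled array, at least 3.42-fold lower. Of its spots on the oe-NC-labelled array, 26.3% were well above background. Its 3 probes had log2 differences of -0.95, -2.31 and -2.16, and with normexp its bound was 1.59. With the higher floor the bounds of miR-3675-3p, miR-3679-3p and miR-3934-3p were 2.20, 2.87 and 3.65, all above the threshold.

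All 3 members at least 2-fold lower on the oe-HOTTIP-labelled array were 3p arms. Of the 6 at least 2-fold higher, 1 was a 3p arm and the other 5 have no arm in their name. Among the 2407 other miRNAs, 43.8% of the 112 at least 2-fold lower were 3p arms, against 12.8% of the 149 at least 2-fold higher. In base composition, the lower members had 9.09% G in miR-3675-3p, 4.55% in miR-3679-3p and 36.4% in miR-3934-3p. The 5 higher members with a sequence had between 27.3% and 45.5% G, with a median of 34.8%. Over the other miRNAs the median was 23.8% among those lower and 47.8% among those higher. The share of G and the arm were not separated, and these differences were not tested.

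Detected members were richer in G and C than undetected ones. The median was 59.1% (50% to 83.3%) for the 13 detected members with a sequence and 46.2% (22.7% to 81.8%) for the 109 undetected. No member under 50% was detected, neither of 33 with less than 40% nor of 26 with 40% to 50%. Of 35 with 50% to 60%, 7 were detected (20.0%), of 17 with 60% to 70% 2 were (11.8%), and of 11 with at least 70% 4 were (36.4%). These 4 were miR-3663-3p, miR-3665, miR-3940-5p and miR-3972. Among the other miRNAs, those with less than 40% G and C were detected in 6.59% those with 40% to 50% in 14.3%, those with 50% to 60% in 14.04%, those with 60% to 70% in 23.9% and those with at least 70% in 42.8%. Their medians were 60% G and C where detected and 50% where not, so the detected members lay close to the detected miRNAs of the rest of the array. Base composition also sets how strongly a probe binds, and its part in detection was not tested.

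**Figure D4:**
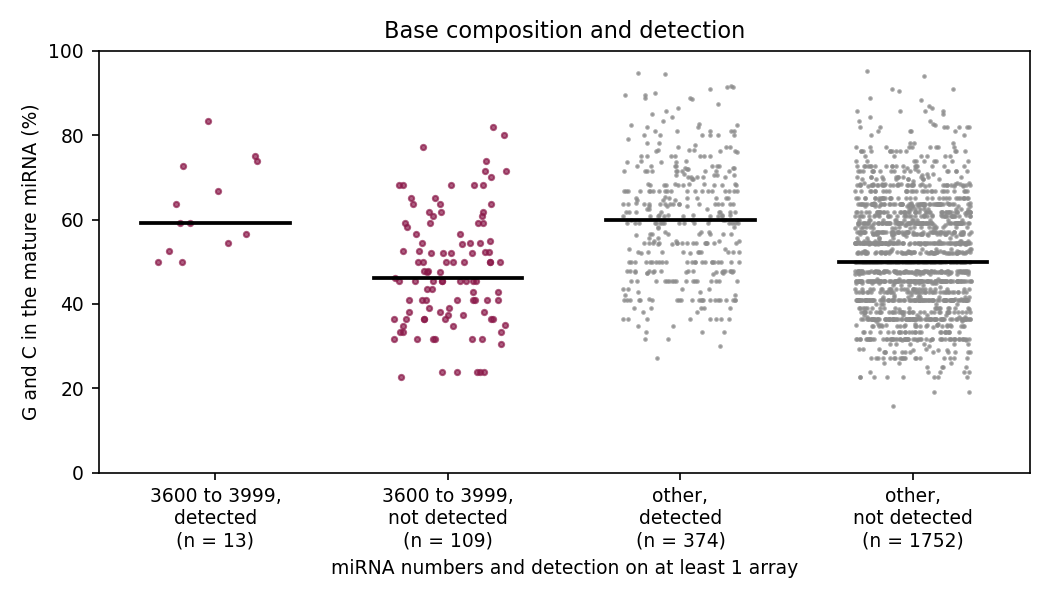
Percent of G and C in the mature sequence of each miRNA with a RefSeq entry, by number range and by detection on at least 1 array, with the median as a bar. The 13 detected members all have 50% or more, with a median of 59.1%, and the 109 undetected members have a median of 46.2%.

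The motif GGAG, searched for in the mature strand as given, was present in 2 of the 13 detected members (15.4%) and in 15 of the 109 undetected (13.8%). Among the other miRNAs it was present in 32.9% of those detected and 12.4% of those not. GGGG was present in 3 of the 13 (23.1%) and 5 of the 109 (4.59%), and in 26.5% and 9.25% of the others. CCCU was in 0 of the 13 and 8 of the 109, and in 10.7% and 12.7% of the others. A match of letters is not evidence of binding by a protein.

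The 122 members with a sequence had 120 distinct seeds, and the 13 detected ones had 13. Of these 13, 4 share their seed with 1 miRNA outside the range. miR-3652 shares it with miR-4430, which was read at 2525 ± 181 (SD, 17 spots) on the oe-NC-labelled array and at 789 ± 47.2 (SD, 20 spots) on the other, a log2 difference of -2.33. miR-3972 shares it with miR-1202, at 113 ± 21.8 and 112 ± 12.0 (SD) and a log2 difference of -0.66. miR-3940-5p shares it with miR-4507, at 39.9 ± 2.28 and 84.4 ± 8.85 (SD) and a log2 difference of 0.43, and miR-3679-5p with miR-1185-5p, which was not detected. After scaling, miR-3972 and miR-1202 differed in direction. Before scaling, miR-1202 was nearly equal on both arrays, and the fold of miR-3972 is a bound that fell to 1.27 with the higher floor. For miR-3652 and miR-3940-5p, whose probes disagreed, no direction can be compared.

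Several groups known by origin or name were not detected. miR-3607 and miR-3653, whose arms come from small nucleolar RNAs, had 0 of 4 members detected, with intensities of -1.57 to 1.18 on either array. miR-3666, which carries the seed of the miR-130 family, was at -1.39 and -0.190. Of 15 members listed as name families with letters or more than one locus, such as the miR-3689 and miR-3622 families and miR-3913, 0 were detected. Their highest value was 4.08, for miR-3689b-3p on the oe-HOTTIP-labelled array.

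**Figure D5:**
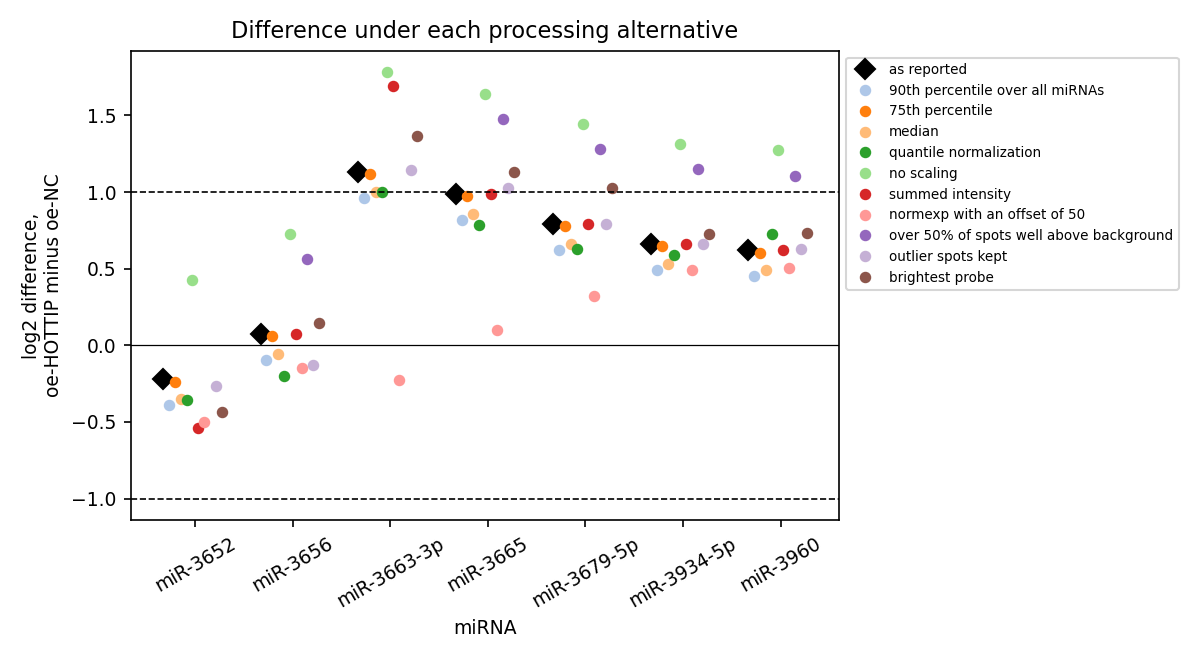
Log2 difference between the oe-HOTTIP-labelled array and the oe-NC-labelled array for the 7 members that both arrays detected, as reported (diamonds) and under each other way of processing the scanner output (circles). miR-3665, miR-3679-5p, miR-3934-5p and miR-3960 are above 0 throughout, and dashed lines mark 2-fold.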

How the data were processed

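The authors deposited the scanner output of 2 arrays, with a background-subtracted intensity per spot from Agilent Feature Extraction (10.10 in the notes, 11.5.1.1 in the header), and a table of log2 values, which the authors normalized to the 90th percentile in GeneSpring. The columns of that table follow the scanner values of the arrays titled with the opposite group, so it served as an alternative. Control and outlier spots were left out, of 2840 member spots 90 on the oe-NC and 96 on the oe-HOTTIP array. Spots were averaged per probe and probes per miRNA, signals were divided by the 90th percentile of the 261 miRNAs that both arrays detected, and log2 was taken. Detection is the scanner's call per miRNA. The SD is over spots, pooled within probes, and the spread of a log2 difference combines both relative SDs. These cover technical error only, and precision is limited by the number of arrays. By rule, the text names every member detected on at least 1 array, the other arm of such a member and miRNAs of the lists. Other members named for an extreme value were chosen after it was seen. The members, lists of families, G and C content and cell type markers were chosen with earlier results of these data known, and the seed partners, motif counts and arm and G shares by direction after values were seen. Alternatives were other scalings, quantile normalization, summed intensity, normexp with an offset of 50 on median signals, stricter detection, outlier spots kept, the brightest probe and a higher floor. The sequence and position of miR-3911 are not reported here. normexp ran in limma 3.58.1 under R 4.3.3, and the rest in Python 3.11.15 with pandas 2.3.3, numpy 2.4.6 and, for plots, matplotlib 3.10.9.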

Additional observations from a re-analysis of the deposited data

How the results depend on the processing

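The count of members at least 2-fold higher, 6 as reported, was 11 without scaling, 2 with the higher floor for bounds, 3 in the normalized table by its column names and 0 with normexp and an offset of 50. The count at least 2-fold lower, 3 as reported, was 0 with normexp and 0 where over 50% of spots had to be well above background, which left 5 members on both arrays and 9 on at least 1. The median log2 difference of the members detected on both arrays, 0.66 as reported, was 1.31 without scaling, 1.15 with the stricter detection, 0.10 with normexp and -0.60 in the normalized table, where 6 of 7 members had the opposite sign. Of single members, miR-3656 turned to -0.20 with quantile normalization, miR-3652 to 0.43 without scaling and miR-3663-3p to -0.23 with normexp. In all, miR-3656 was below 0 in 5 of 10 alternatives, and its turns within the spot spread count below as having stayed. normexp adds a constant that compresses dim signals, but its part in these values was not tested, nor were the causes of the other changes. In the other combinations, 25 of the counts and medians and 117 of the values of single members stayed within 1.5 times or the spot spread, and 29 values of single members moved further without turning. miR-3665 passed 2-fold in 4 of 10 alternatives. The dim members lie closest to background, and the part of this in the changes was not tested. No paired analysis was possible because with 1 array a group there are no replicates to pair.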
